A study of Homo sapiens with 6 samples.

Results

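The heat shock proteins and the J-domain chaperones were taken as the rows of an RNA sequencing table whose gene symbols follow the HSPA, HSPB, HSPD, HSPE, HSPH, HSP90A and HSP90B or the DNAJA, DNAJB and DNAJC naming patterns, without symbols that end in P plus digits. The rule found 86 of the 60671 rows of the table. They carry 85 symbols, because HSPA14 stands there under 2 identifiers. The RNA came from HaCaT, an established cell line of human keratinocytes that is immortal, with the genotype given as WT. In 1 group (IFN-beta, n = 3 libraries) the cells had been kept for 24 h in serum-free high-glucose medium with the type I interferon IFN-beta at 160 ng/mL. In the other (control, n = 3 libraries) they had been kept for the same time in the same medium without it. The labels give tissue as skin and batch as unknown. Whether the replicates were separate cultures is not stated, so each p-value reflects just the variation among these libraries, possibly technical. Values are FPKM, fragments scaled by gene length and by library depth, as the authors deposited them. Levels carry the SD over the 3 libraries of a group, and log2 changes carry the SE.

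Heat shock proteins and their co-chaperones fold new proteins, hold unfolded ones in solution and help to send damaged ones to degradation. HSP70 proteins (HSPA) bind short hydrophobic stretches of a client in a cycle of ATP hydrolysis, which a J-domain protein (DNAJ) starts and a nucleotide exchange factor ends. HSP90 proteins finish kinases, receptors and other signalling clients, small heat shock proteins (HSPB) hold clients without ATP, and the HSPD1 and HSPE1 rings enclose proteins inside mitochondria. Each compartment has its own set. The cytosolic set is induced by heat shock factor 1, and the set of the endoplasmic reticulum (ER) by the unfolded protein response, which senses crowding of the ER by unfolded secretory proteins. Keratinocytes meet heat and ultraviolet light at the body surface and hold high levels of several of these proteins.

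By the main known location of the protein, 47 of the 86 rows were placed in cytosol and nucleus, 13 in the ER, 8 in mitochondria and 18 in other or unsettled places. A mean of at least 0.5 FPKM over the 6 libraries, the condition for testing, was reached by 59 rows, of which 32 were cytosolic or nuclear, 13 of the ER, 8 mitochondrial and 6 other. The 27 rows below it included 8 at 0 in every library, and 18 of the 27 had at most 3 reads in each library. Of the 11 symbols that end in P, which are HSP90 pseudogenes, 2 were tested.

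The libraries held between 25832158 and 30594527 reads. Pearson correlations of log2 values over 15163 genes were between 0.994 and 0.995 for libraries of the same group and between 0.973 and 0.976 for libraries of different groups, as a description over genes, which are not independent. The 5 interferon response genes used as a check of the labels were all higher with IFN-beta, and MX1, an antiviral GTPase, was at 666, 697 and 676 FPKM in IFN-beta libraries, against 4.77, 4.36 and 4.59 FPKM in control libraries. All 8 keratinocyte markers were above the filter, with a summed level of 3488 to 3530 FPKM in IFN-beta libraries and 3483 to 3780 FPKM in control libraries. Single markers moved within this sum. At an adjusted p of 0.05, 5 were higher with IFN-beta and 2 lower, against 22.5% and 19.9% of all genes tested, and KRT14 did not pass. The largest log2 changes were 0.41 for TP63 and 0.37 for KRT17 among the higher ones, and the lower ones were KRT5 (-0.51) and PERP (-0.41). Summed markers of fibroblasts (6 genes) lay at 2.55 to 3.27 FPKM in IFN-beta libraries and 1.73 to 2.47 FPKM in control libraries. Those of immune cells (5 genes) lay at 0.969 to 1.39 FPKM with IFN-beta and 0.506 to 0.713 FPKM in controls, and those of endothelial cells (3 genes) at 2.12 to 2.21 FPKM with IFN-beta and 0.696 to 0.964 FPKM in controls. Melanocyte markers (5 genes) summed to 3.34 to 3.91 FPKM with IFN-beta and 4.14 to 4.69 FPKM in controls. The fibroblast sum lay mostly in COL1A1 (mean 2.69 FPKM with IFN-beta and 1.80 FPKM in controls). The immune sum lay mostly in ITGAM (0.989 and 0.519 FPKM) and the endothelial sum in CDH5 (1.97 and 0.731 FPKM). MITF (2.10 and 2.91 FPKM) and PMEL (1.57 and 1.41 FPKM) made up most of the melanocyte sum. DCN of the fibroblast list and MLANA and TYR of the melanocyte list were at 0 in all libraries, and the immune marker PTPRC and the fibroblast marker COL1A2 were at 0 in all IFN-beta libraries. The part of other cell types in the results below was not tested, and fewer cells of a type and less RNA per cell cannot be told apart in such data.

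Across the whole family the chaperones changed in both directions and mostly by little. Of the 59 tested members, 16 were higher and 9 lower with IFN-beta at an adjusted p of 0.05, which is 27.1% and 15.3% of them. Among all 15163 genes tested, 22.5% were higher and 19.9% lower, and the share called in either direction was 42.4% both in the family and in all genes. The median log2 change of the members was -0.02, against 0.01 over all genes, and the members ran from -0.39 to 0.67. Summed over the family, the level was 14545, 14464 and 14663 FPKM in IFN-beta libraries, against 14399, 14745 and 15894 FPKM in control libraries, so the groups overlapped. The sum made up 2.01% of all FPKM in each group on average. The split of calls over all genes moved with the scaling: 53.2% of them were higher with the deposited FPKM, 63.2% once every library was rescaled to a common sum and 41.5% with quantile normalization. In the family, rescaling to the same sum gave 19 higher and 6 lower members, and quantile normalization 16 higher and 16 lower.

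**Figure D1:**
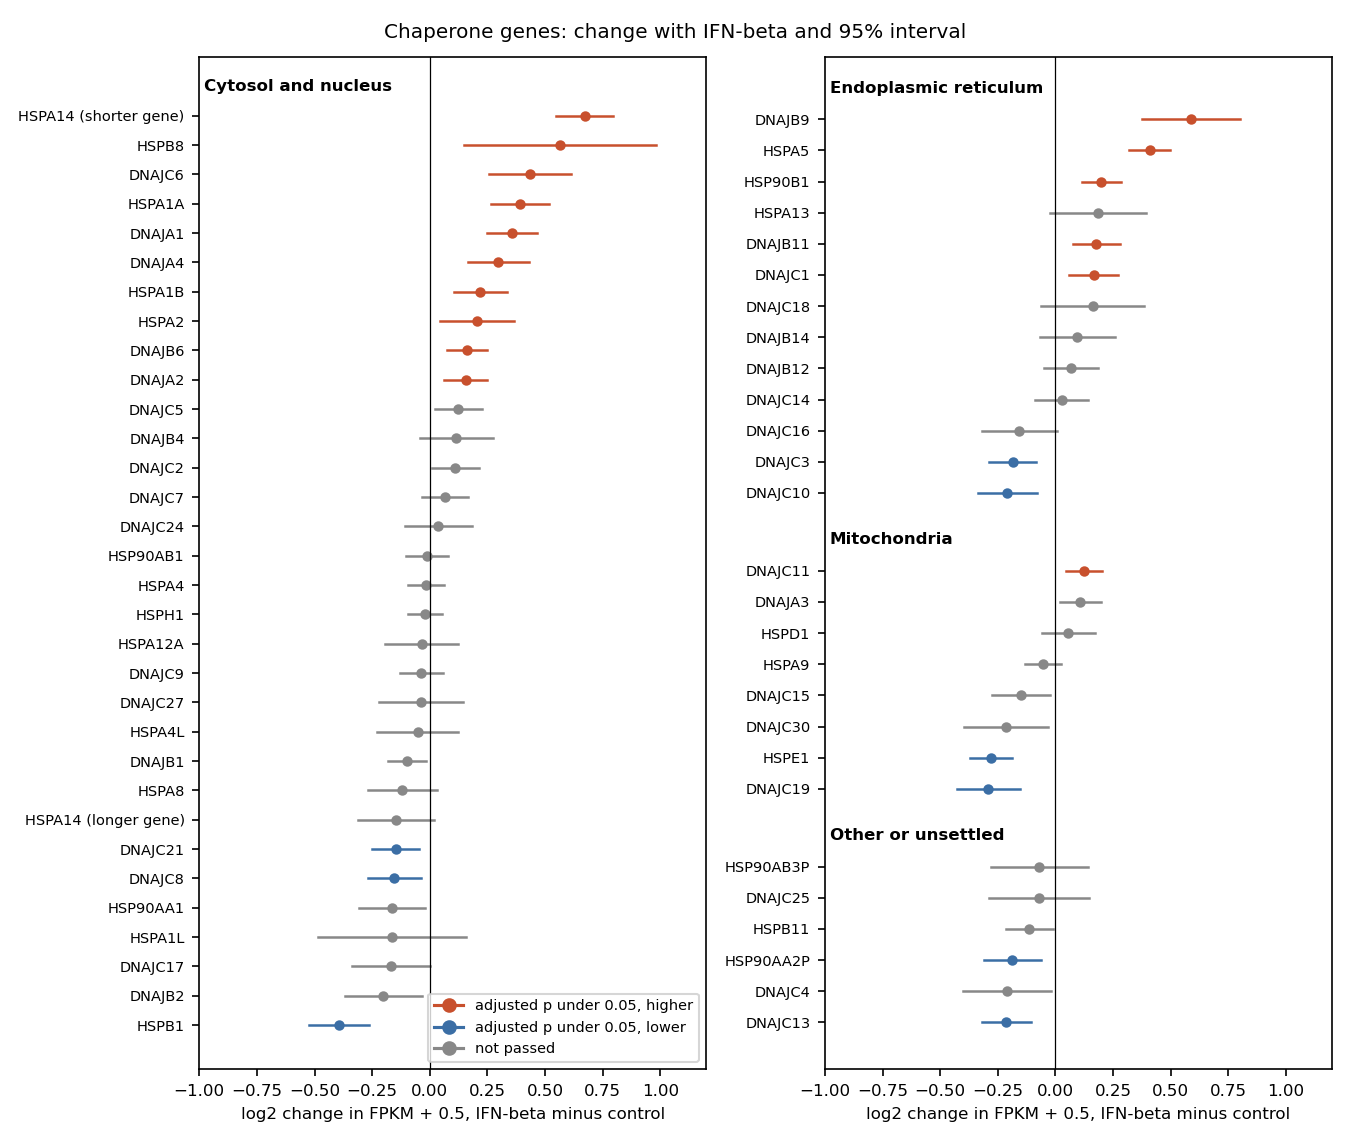
Log2 change in FPKM + 0.5 (IFN-beta minus control) of the 59 tested members, by location, with the point at the fitted change and the bar at its 95% interval (n = 3 libraries per group). Points in red passed as higher (16), points in blue passed as lower (9), and points in grey did not pass (34).

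By compartment, the counts are to be read beside the 22.5% higher and 19.9% lower of all genes, and the difference between compartments was not tested. In the ER, 5 of 13 members were higher and 2 lower, with a median log2 change of 0.16. In cytosol and nucleus, 10 of 32 were higher and 3 lower, with a median of -0.01. In mitochondria, 1 of 8 was higher and 2 lower, with a median of -0.10, and of the 6 others 2 were lower and none higher, with a median of -0.15. The ER members summed to 1587, 1613 and 1613 FPKM in IFN-beta libraries, against 1359, 1409 and 1352 FPKM in control libraries, which did not overlap (ratio of the means 1.17). The cytosolic and nuclear members summed to 10631, 10525 and 10689 FPKM with IFN-beta, against 10804, 11008 and 12103 FPKM in controls (ratio 0.939). These 2 ranges did not overlap either, and control library 3 stood above the other two; leaving out 1 library at a time moved the ratio between 0.919 and 0.973. The difference of the means, -690.2 FPKM, lay in HSPA8 (-353 FPKM) and HSP90AA1 (-370 FPKM), neither of which passed, and the sum without them averaged 3608 ± 30.7 FPKM with IFN-beta and 3576 ± 9.01 FPKM in controls. With quantile normalization the ratio of the whole cytosolic sum turned to 1.12, so no direction is drawn from it. The mitochondrial sum was 2160, 2157 and 2194 FPKM with IFN-beta, against 2055, 2140 and 2245 FPKM in controls, with overlap (ratio 1.01).

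**Figure D2:**
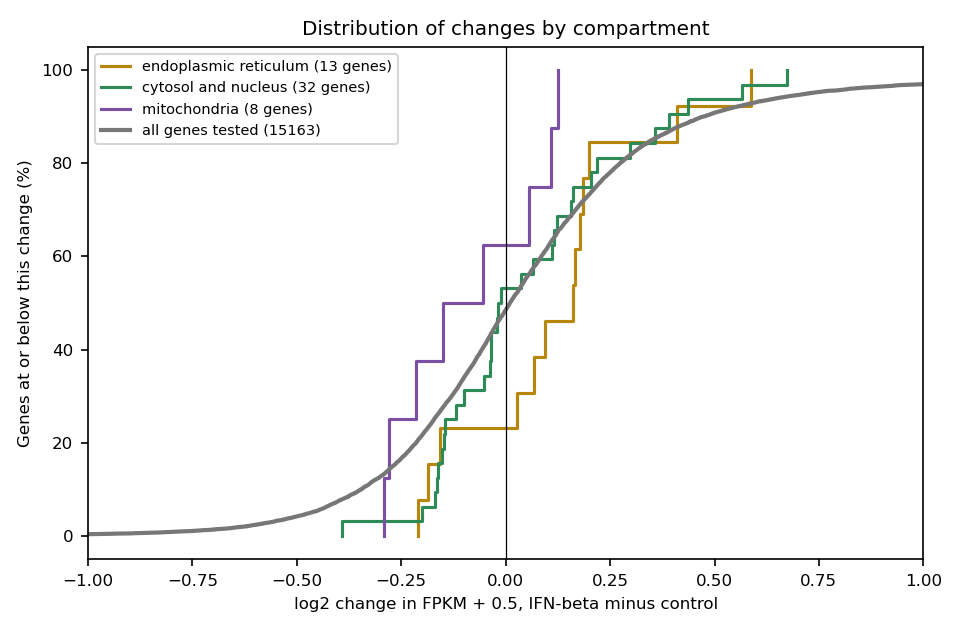
Cumulative share of genes (percent, vertical axis) at or below each log2 change in FPKM + 0.5 (IFN-beta minus control, horizontal axis) for the tested ER, cytosolic and mitochondrial members and for all 15163 tested genes. The ER line lies to the right of the grey line through the middle of its range (median 0.16, against 0.01 for all genes) and the mitochondrial line to the left (median -0.10), while the cytosolic line follows it closely.

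In the ER, HSPA5, HSP90B1, DNAJB9, DNAJB11 and DNAJC1 were higher, DNAJC3 and DNAJC10 were lower, and the other 6 tested members did not pass. HSPA5 (BiP; ENSG00000044574, chromosome 9, 125234853 to 125241343) is the HSP70 of the ER lumen and holds the stress sensors of the unfolded protein response inactive. HSPA5 was at 376, 375 and 384 FPKM in IFN-beta libraries, against 289, 294 and 272 FPKM in control libraries. All IFN-beta values lay above all control values, with means of 378 ± 5.28 FPKM with IFN-beta and 285 ± 11.3 FPKM in controls and a log2 change of 0.41 ± 0.04 (limma, Benjamini-Hochberg adjusted p = 6.19e-05). HSP90B1 (GRP94; ENSG00000166598, chromosome 12, 103930107 to 103953645), the HSP90 of the ER, was at 991, 1015 and 1009 FPKM with IFN-beta, against 861, 900 and 865 FPKM in controls. Its groups were apart as well, with a smaller log2 change of 0.20 ± 0.04 (adjusted p = 0.0025). The calls of both genes held under all 17 alternatives, HSPA5 with log2 changes of 0.38 to 0.46 and HSP90B1 with 0.17 to 0.38.

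HSPA5 and HSP90B1 were also the pair of members whose promoters held the ER stress response element, the sequence through which the unfolded protein response is known to act on ER chaperone genes. It was searched on both strands, as CCAAT followed by CCACG with any 9 bases between them. The windows were the 250 bases before each RefSeq gene start (build GRCh38.p14), and 64 of the 85 symbols had a window. The element stood in 0.074% of all 35116 windows and in 0.0916% of the 27305 genes with a window. Shown 5′ to 3′ on the strand of the gene are the parts of both windows that hold no annotated exon, with the match in capitals, HSPA5 at chr9:125241344-125241593, minus strand, and HSP90B1 at chr12:103930212-103930333, plus strand. A match describes these letters and is not a measured binding site. The interferon-stimulated response element was searched on both strands as GAAA and GAAA with any 2 bases between. It stood in 3.02% of all windows, in 3.71% of all genes with a window and in 0 of the 64 member genes.
HSPA5: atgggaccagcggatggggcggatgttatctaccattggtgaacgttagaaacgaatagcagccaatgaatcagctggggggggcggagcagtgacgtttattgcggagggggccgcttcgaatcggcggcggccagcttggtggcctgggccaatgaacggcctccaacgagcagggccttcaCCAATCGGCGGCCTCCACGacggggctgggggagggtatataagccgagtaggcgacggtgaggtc
HSP90B1: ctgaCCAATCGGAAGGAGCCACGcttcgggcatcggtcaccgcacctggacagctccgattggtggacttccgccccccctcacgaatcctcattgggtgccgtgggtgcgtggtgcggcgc

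DNAJB9 (ERdj4; ENSG00000128590, chromosome 7, 108569867 to 108574850), a J-domain protein that helps to clear misfolded proteins from the ER and to keep the sensor IRE1 off, had the largest log2 change of the ER members. DNAJB9 was at 15.8, 13.8 and 16.2 FPKM with IFN-beta, against 8.67, 10.7 and 10.7 FPKM in controls. The groups were apart and the log2 change was 0.59 ± 0.09 (adjusted p = 0.00118), between 0.49 and 0.66 under the alternatives, all of which kept the call. DNAJB11 (ERdj3), which brings clients to HSPA5, was at 33.8, 36.4 and 34.3 FPKM with IFN-beta, against 31.0, 30.8 and 30.3 FPKM in controls. It rose by 0.18 ± 0.04 on the log2 scale (adjusted p = 0.0112), a call that ended without IFN-beta library 2 (log2 change 0.15, adjusted p = 0.0532, with a range over the alternatives of 0.00439 to 0.0532). Of the exonic bases of DNAJB11, 15.3% also lie in genes on the opposite strand. DNAJC1 (ERdj1), a membrane J-domain protein that can bind ribosomes, averaged 31.7 ± 1.42 FPKM with IFN-beta and 28.2 ± 0.487 FPKM in controls (log2 change 0.17 ± 0.05, adjusted p = 0.0199). Its call was lost under quantile normalization and without IFN-beta library 2, IFN-beta library 3 or control library 2, with adjusted p up to 0.0911.

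The falls in the ER were DNAJC3 and DNAJC10. DNAJC3 (p58IPK), which in the ER lumen assists HSPA5 and is known as an inhibitor of the kinases PERK and PKR, was at 22.2, 21.0 and 21.8 FPKM with IFN-beta, against 24.3, 25.1 and 24.7 FPKM in controls. The IFN-beta values all lay below the control values (log2 change -0.19 ± 0.05, adjusted p = 0.00982), and every alternative kept the call. DNAJC10 (ERdj5), a reductase that opens disulfide bonds of misfolded proteins, was at 34.4, 35.8 and 34.5 FPKM with IFN-beta, against 37.5, 40.4 and 43.4 FPKM in controls. It fell by 0.21 ± 0.06 on the log2 scale (adjusted p = 0.0156), with no overlap, and passed no longer without IFN-beta library 1 (adjusted p = 0.0537) or IFN-beta library 3 (adjusted p = 0.0501); over the alternatives the adjusted p was 0.00245 to 0.0537.

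The other ER members did not pass. HSPA13 (STCH), an HSP70 with a shortened structure, was at 12.1, 11.3 and 10.8 FPKM with IFN-beta, against 8.69, 11.3 and 10.1 FPKM in controls. The ranges overlapped at 1 control library, number 2 (log2 change 0.18 ± 0.09, adjusted p = 0.14), without which the change was 0.27 (adjusted p = 0.0491, the lowest of a range that reaches 0.385). DNAJB12, a membrane J-domain protein that works with HSC70 on membrane clients, was at 22.4, 23.9 and 24.4 FPKM with IFN-beta, against 23.3, 22.1 and 21.9 FPKM in controls (log2 change 0.07 ± 0.05, adjusted p = 0.323). DNAJC14 was at 19.2, 19.7 and 18.0 FPKM with IFN-beta, against 18.7, 18.8 and 18.3 FPKM in controls (0.03 ± 0.05, adjusted p = 0.695). Both pairs of groups overlapped. DNAJC14 shares 23.2% of its exonic bases with a gene on its own strand and 34.9% with genes on the opposite strand. DNAJC18 (0.16), DNAJB14 (0.09), a relative of DNAJB12, and DNAJC16 (-0.16) had adjusted p of 0.218, 0.324 and 0.114. DNAJC16 passed as lower without control library 3 and with quantile normalization (adjusted p 0.0318 to 0.304 over the alternatives).

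**Figure D3:**
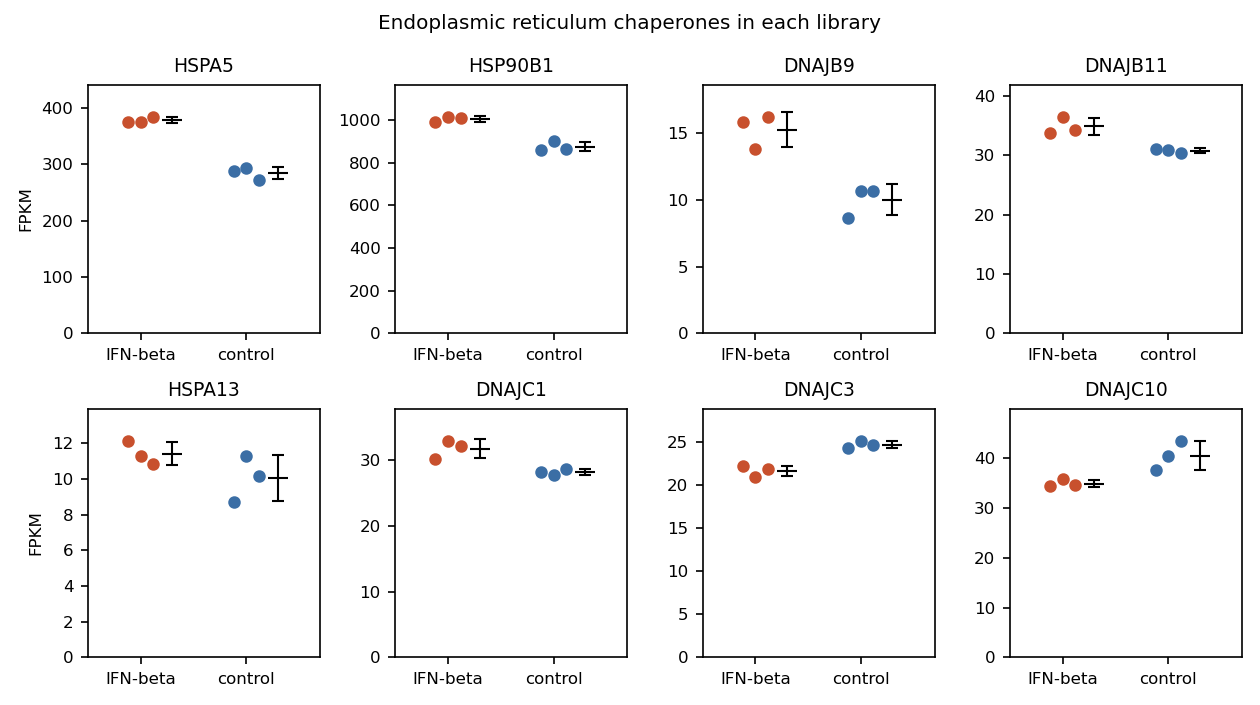
FPKM of 8 ER chaperones in each library (points; 3 IFN-beta libraries in red, 3 control libraries in blue), with the mean and SD in black and each axis starting at 0. HSPA5, HSP90B1, DNAJB9, DNAJB11 and DNAJC1 lie higher in all IFN-beta libraries, DNAJC3 and DNAJC10 lie lower, and the groups of HSPA13 overlap.

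Other genes of ER folding and of the unfolded protein response, none of them a member, were higher in larger number than lower. Of the 30 tested, 15 were higher and 2 lower, against 22.5% and 19.9% of all genes, with a median log2 change of 0.17, against 0.01 over all genes, and the alternatives gave 13 to 16 higher and 1 to 3 lower. DDIT3 (CHOP), a transcription factor of prolonged ER stress, averaged 20.5 ± 0.497 FPKM with IFN-beta and 12.5 ± 0.611 FPKM in controls (log2 change 0.69 ± 0.05, adjusted p = 1.8e-05). CALR, the lectin chaperone calreticulin, averaged 1393 ± 39.8 FPKM with IFN-beta and 1031 ± 66.6 FPKM in controls (0.44 ± 0.05, adjusted p = 0.000249). The sensor gene ERN1 (IRE1) rose by 0.42 ± 0.06 and the oxidase gene ERO1A by 0.34 ± 0.03 on the log2 scale. The 2 that fell, SEL1L and DERL2, belong to the machinery that moves misfolded proteins out of the ER, with log2 changes of -0.21 and -0.14; the call of DERL2 was lost in 8 of the 17 alternatives. CANX, the membrane partner of calreticulin, had a log2 change of -0.09 ± 0.04 (adjusted p = 0.126), and ATF4, a transcription factor of the stress response, of 0.06 ± 0.03 (adjusted p = 0.159).

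In the cytosol HSPA1A, HSPA1B and several J-domain genes were higher with IFN-beta, and the small heat shock protein gene HSPB1 was lower. The cytosolic members with the highest FPKM, HSPA8, HSP90AA1 and HSP90AB1, did not pass. HSPA1A and HSPA1B encode nearly the same stress-inducible HSP70, so reads could be divided between them and each value is uncertain. HSPA1A (ENSG00000204389, chromosome 6, 31815543 to 31817946) was at 145, 159 and 148 FPKM with IFN-beta, against 118, 120 and 106 FPKM in controls. HSPA1B (ENSG00000204388, chromosome 6, 31827738 to 31830254) was at 55.4, 59.5 and 61.1 FPKM with IFN-beta, against 52.8, 49.3 and 48.8 FPKM in controls. In both genes every IFN-beta value lay above every control value. HSPA1A rose by 0.39 ± 0.06 (adjusted p = 0.000636) and HSPA1B by 0.22 ± 0.05 (adjusted p = 0.0075) on the log2 scale, and all alternatives kept both calls. The sum of both averaged 209 ± 9.12 FPKM with IFN-beta and 165 ± 8.88 FPKM in controls, with IFN-beta values of 200.1 to 218 FPKM above control values of 155 to 171 FPKM. HSPA1B shares 36.5% of its exonic bases with an unnamed transcript on its own strand.

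The constitutive HSP70 and both cytosolic HSP90 genes were the cytosolic members with the highest FPKM. HSPA8 (HSC70; ENSG00000109971, chromosome 11, 123057489 to 123063230), the housekeeping HSP70, was at 3995, 3904 and 4062 FPKM with IFN-beta, against 4069, 4152 and 4799 FPKM in controls. Its groups were apart by little and control library 3 stood far above the rest. The log2 change was -0.12 ± 0.07 (adjusted p = 0.181), and -0.04 without that library. HSP90AA1, the inducible HSP90, was at 3037, 2979 and 3045 FPKM with IFN-beta, against 3162, 3270 and 3736 FPKM in controls, with control library 3 again the highest. Its log2 change was -0.16 ± 0.06 (adjusted p = 0.068), -0.09 without control library 3 and -0.21 without control library 1. HSP90AA1 passed as lower in 4 alternatives, among them that without control library 1 (adjusted p = 0.0293, with 0.0112 to 0.252 over the alternatives). HSP90AB1, the constitutive HSP90, was at 1221, 1232 and 1171 FPKM with IFN-beta, against 1249, 1210 and 1190 FPKM in controls, with overlap and a log2 change of -0.01 ± 0.04 (adjusted p = 0.863). Quantile normalization turned the direction of all 3, with log2 changes of 0.26, 0.14 and 0.18 that passed as higher, so their direction depends on the scaling.

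**Figure D4:**
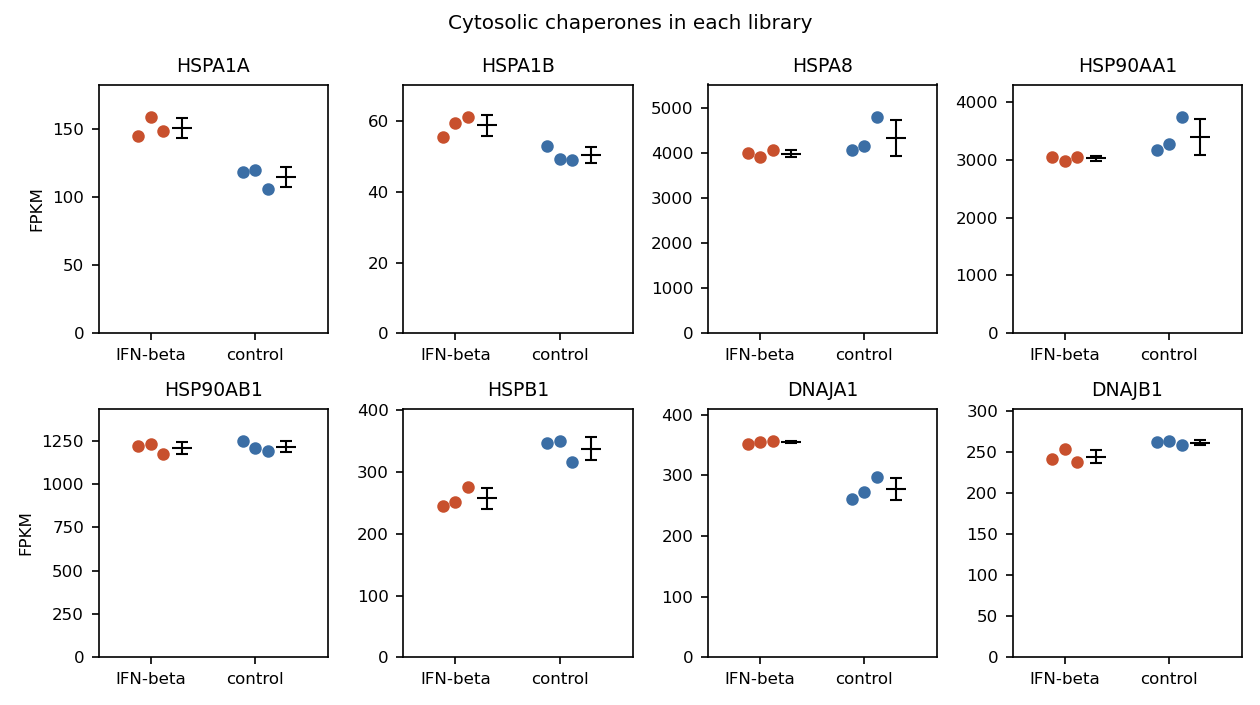
FPKM of 8 cytosolic chaperones in each library (points; 3 IFN-beta libraries in red, 3 control libraries in blue), with the mean and SD in black and each axis starting at 0. HSPA1A, HSPA1B and DNAJA1 lie higher and HSPB1 lower in all IFN-beta libraries, and control library 3 is the highest library of HSPA8 (4799 FPKM) and HSP90AA1 (3736 FPKM).

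Heat shock elements, the sequences that heat shock factors bind, were searched in the same windows. The element was taken on both strands with 3 units (GAA, TTC and GAA, each separated by any 2 bases) and with 2 units (GAANNTTC), which the first contains. The form with 3 units stood in 0.441% of all 35116 windows, in 0.557% of the 27305 genes with a window and in 6 of the 64 member genes. Of these, DNAJB6 was higher with IFN-beta, HSPA8, HSP90AA1, HSP90AB1 and HSPD1 did not pass, and HSPA6 was too low to be tested. The form with 2 units stood in 5.78% of all windows, in 7.05% of the genes with a window and in 16 of the 64 member genes. Of these, 6 were higher (DNAJA1, DNAJA4, DNAJB6, HSPA1A, HSPA1B and HSPB8) and 1 was lower (HSPB1), against 22.5% and 19.9% of all genes tested. Another 6 did not pass (DNAJB1, HSP90AA1, HSP90AB1, HSPA1L, HSPA8 and HSPD1), and 3 were too low to be tested (DNAJB7, HSPA6 and HSPB6). Whether the element relates to these calls was not tested. The stretches without annotated exons are shown 5′ to 3′ on the strand of the gene for the called HSPA1A and DNAJB6 and, for contrast, for HSPA8, with the matches in capitals (GRCh38.p14; HSPA1A at chr6:31815293-31815463, plus strand; DNAJB6 at chr7:157336754-157336965, plus strand; HSPA8 at chr11:123062336-123062386, minus strand). HSPA1A is given with the form of 2 units and the other two with that of 3.
HSPA1A: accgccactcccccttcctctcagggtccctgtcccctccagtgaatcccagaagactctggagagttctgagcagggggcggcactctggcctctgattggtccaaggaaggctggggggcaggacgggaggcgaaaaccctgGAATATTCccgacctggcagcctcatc
DNAJB6: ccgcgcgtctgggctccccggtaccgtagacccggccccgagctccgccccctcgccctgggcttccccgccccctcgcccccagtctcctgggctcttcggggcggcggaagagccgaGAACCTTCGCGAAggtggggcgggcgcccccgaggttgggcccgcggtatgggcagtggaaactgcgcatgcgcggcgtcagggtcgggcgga
HSPA8: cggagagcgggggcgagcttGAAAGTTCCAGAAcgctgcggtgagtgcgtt

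The proteins of the cytosolic J-domain genes of classes A and B start the HSP70 cycle on unfolded clients. Of 7 tested, 4 were higher (DNAJA1, DNAJA4, DNAJB6 and DNAJA2) and 0 passed as lower, against 22.5% and 19.9% of all genes tested. DNAJA1 (HDJ2; ENSG00000086061, chromosome 9, 33025273 to 33039907) was at 352, 355 and 357 FPKM with IFN-beta, against 261, 273 and 297 FPKM in controls. The groups were well apart (log2 change 0.36 ± 0.05, adjusted p = 0.000444), and the call held under all alternatives. DNAJB1 (HSP40), the best known heat-inducible partner of HSP70, was at 241, 253 and 238 FPKM with IFN-beta, against 262, 263 and 258 FPKM in controls. Its IFN-beta values lay below the control values by little (log2 change -0.10 ± 0.04, adjusted p = 0.0555). It passed as lower without control library 3 (adjusted p = 0.0448) and with median-of-ratios size factors (adjusted p = 0.0262), in a range of 0.0262 to 0.295. DNAJA4 (0.30 ± 0.06, adjusted p = 0.00348), DNAJB6 (0.16 ± 0.04, adjusted p = 0.00949), which holds aggregating proteins in solution, and DNAJA2 (0.16 ± 0.04, adjusted p = 0.0146) were higher. DNAJA2 passed no longer without IFN-beta library 1 or 3, with median-of-ratios size factors or without the variance trend, with adjusted p up to 0.0612. DNAJB4 (0.11, adjusted p = 0.221) did not pass. DNAJB2, a J-domain protein with ubiquitin-binding motifs, had a log2 change of -0.20 ± 0.07 (adjusted p = 0.057), and passed as lower in 5 alternatives, among them that without control library 2 (adjusted p = 0.0425, in a range of 0.0247 to 0.153).

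Of the small heat shock proteins, HSPB1 fell and HSPB8 rose. HSPB1 (HSP27; ENSG00000106211, chromosome 7, 76302673 to 76304295), an abundant holdase of keratinocytes that also binds actin, was at 245, 251 and 276 FPKM with IFN-beta, against 347, 350 and 316 FPKM in controls. The groups were apart and the log2 change of -0.39 ± 0.06 (adjusted p = 0.00067) was the largest fall of the family; every alternative kept the call. HSPB8 (HSP22), which forms a complex with BAG3 that steers clients to autophagy, was at 4.14, 3.33 and 3.55 FPKM with IFN-beta, against 2.63, 2.95 and 1.56 FPKM in controls. The groups did not overlap, but control library 3 was low and the counts were small, between 30 and 93 reads. The log2 change was 0.57 ± 0.18 (adjusted p = 0.0355), and 0.34 without control library 3. The call was lost without any 1 of the 3 IFN-beta libraries, with quantile normalization, without the filter and without the variance trend (adjusted p 0.0204 to 0.121 over the alternatives).

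HSPA14, an HSP70 that works at the ribosome together with DNAJC2, stands in the table in 2 overlapping rows that moved differently. The row of ENSG00000284024 (chromosome 10, 14838166 to 14847018) was at 17.9, 19.5 and 18.4 FPKM with IFN-beta, against 11.8, 11.5 and 11.2 FPKM in controls, with no overlap. Its log2 change of 0.67 ± 0.05 (adjusted p = 2.26e-05) was the largest rise of the family, and all alternatives kept it. The row of ENSG00000187522 (chromosome 10, 14838306 to 14871741) was at 37.4, 41.0 and 37.0 FPKM with IFN-beta, against 38.6, 42.4 and 47.0 FPKM in controls, with overlap and a log2 change of -0.14 ± 0.07 (adjusted p = 0.142). Without control library 1 this row passed as lower (-0.21, adjusted p = 0.0307, in a range of 0.0307 to 0.372). Since 17.4% of the exonic bases of ENSG00000187522 lie in the other row, reads could be divided between them, and both values are uncertain. Of the exonic bases of ENSG00000284024, the row that rose, 9.34% lie in the row of ENSG00000187522 and most lie outside it. Which transcripts gave the reads of each row was not tested. DNAJC2 (zuotin-related factor) had a log2 change of 0.11 ± 0.05 (adjusted p = 0.0793), and passed as higher without control library 3 and after rescaling (adjusted p 0.0135 to 0.234 over the alternatives).

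Of the remaining HSP70 genes and the exchange factors of the HSP110 class, HSPA2 alone passed. HSPH1 (HSP110), a nucleotide exchange factor of HSP70, was at 210, 207 and 208 FPKM with IFN-beta, against 207, 212 and 215 FPKM in controls. The groups overlapped (log2 change -0.02 ± 0.03, 95% interval -0.09 to 0.05, adjusted p = 0.664). HSPA4 and HSPA4L, of the same class, had log2 changes of -0.02 and -0.05, and HSPA12A, a distant HSP70, of -0.04. The signs of HSPH1, HSPA4 and HSPA12A turned after rescaling to the same sum, and that of HSPA4L without IFN-beta library 2. HSPA2, best known from the testis, averaged 8.99 ± 0.445 FPKM with IFN-beta and 7.74 ± 0.485 FPKM in controls. Its log2 change of 0.20 ± 0.07 passed (adjusted p = 0.0453), but the call was lost in 10 of 17 alternatives, among them each of the 6 that leave out 1 library (adjusted p 0.0191 to 0.137). HSPA1L averaged 0.815 ± 0.13 FPKM with IFN-beta and 0.968 ± 0.0269 FPKM in controls (log2 change -0.16 ± 0.14, adjusted p = 0.385).

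Among the class C J-domain proteins of the cytosol and nucleus, each bound to a specialised task, 1 was higher and 2 were lower. The other tested ones, which were DNAJC2, DNAJC5, DNAJC7, DNAJC9, DNAJC17, DNAJC24 and DNAJC27, did not pass. Over all genes tested, 22.5% were higher and 19.9% lower. DNAJC6 (auxilin), which with HSC70 strips the clathrin coat from vesicles, was at 5.69, 5.67 and 5.11 FPKM with IFN-beta, against 3.83, 3.91 and 4.04 FPKM in controls. The groups were apart (log2 change 0.44 ± 0.08, adjusted p = 0.00223), and all alternatives kept the call. DNAJC8, associated with the spliceosome, averaged 164 ± 7.6 FPKM with IFN-beta and 182 ± 9.56 FPKM in controls (-0.15 ± 0.05, adjusted p = 0.0358). DNAJC21, needed for maturation of the large ribosomal subunit, averaged 23.2 ± 0.65 FPKM with IFN-beta and 25.8 ± 0.677 FPKM in controls (-0.15 ± 0.05, adjusted p = 0.0284). The call of DNAJC8 was lost in 8 alternatives, including those without IFN-beta library 2 or 3 or control library 2 or 3 (adjusted p up to 0.124). That of DNAJC21 was lost in 5, including those without IFN-beta library 1 or 3 or control library 2 (adjusted p up to 0.114). DNAJC5 (cysteine string protein, 0.12, adjusted p = 0.0543), DNAJC7 (0.07), DNAJC24 (0.04, a diphthamide synthesis factor), DNAJC9 (-0.04, a histone chaperone), DNAJC27 (-0.04) and DNAJC17 (-0.17, a splicing factor, adjusted p = 0.101) did not pass. DNAJC5 passed as higher in 4 alternatives, among them that without control library 1 (adjusted p = 0.0379, with 0.0184 to 0.24 over the alternatives). DNAJC17 passed as lower without control library 2 (adjusted p = 0.0246, with up to 0.285 over the alternatives) and with quantile normalization.

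The regulators and partners of the cytosolic chaperones, none of them a member, were counted as well. Of the heat shock factors, HSF1, the main activator of these genes after heat, averaged 46.0 ± 1.62 FPKM with IFN-beta and 39.4 ± 1.59 FPKM in controls (log2 change 0.22 ± 0.05, adjusted p = 0.00496), while HSF2 (-0.13, adjusted p = 0.217, and past the threshold as lower without control library 1) and HSF4 (0.29, adjusted p = 0.219) did not pass. Of 22 tested co-chaperones of HSP70 and HSP90, 3 were higher and 5 lower (22.5% and 19.9% of all genes), with a median log2 change of -0.03. HSPBP1, an exchange factor of HSP70 whose symbol the rule leaves out for its ending, averaged 38.6 ± 1.35 FPKM with IFN-beta and 46.7 ± 0.366 FPKM in controls (-0.27 ± 0.04, adjusted p = 0.000846). SUGT1 (-0.18), an HSP90 partner, and ST13 (-0.16), the HSP70-interacting protein HIP, were lower, and BAG3 (0.17), the partner of HSPB8, was higher. BAG3 passed no longer without IFN-beta library 3, with quantile normalization or without the variance trend (adjusted p up to 0.0647). SUGT1 lost its call without IFN-beta library 1 or 3 or control library 2 and after rescaling to the same sum (adjusted p up to 0.0614). STIP1 (HOP), which joins HSP70 to HSP90, had a log2 change of -0.09 (adjusted p = 0.0504, with 0.0402 to 0.272 over the alternatives). It stayed uncalled in 11 of the 17 alternatives and passed as lower in the others, among them that without control library 1. CDC37, which brings kinases to HSP90, had a log2 change of 0.08 (adjusted p = 0.183) and passed as higher only after rescaling to the same sum. Over the alternatives 0 to 5 co-chaperones were higher and 2 to 6 lower.

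In TRiC, the chaperonin of the cytosol, and in prefoldin, which hands it new proteins, more genes were lower than higher. Of 14 tested genes, 1 was higher and 6 were lower (22.5% and 19.9% of all genes), with a median log2 change of -0.09, and the alternatives gave 0 to 2 higher and 5 to 7 lower. The largest falls were those of the prefoldin genes PFDN5 (-0.29 ± 0.05, adjusted p = 0.00122), VBP1 (-0.26) and PFDN6 (-0.22) and of the TRiC subunit gene CCT4 (-0.22). The TRiC subunit genes with the highest levels that did not pass were CCT3 (-0.09, adjusted p = 0.135) and CCT5 (-0.07, adjusted p = 0.231).

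In mitochondria the 2 rings of the chaperonin gave unlike values. HSPD1 (HSP60; ENSG00000144381, chromosome 2, 197486584 to 197516737), the folding chamber, was at 1403, 1394 and 1431 FPKM with IFN-beta, against 1276, 1348 and 1445 FPKM in controls. The groups overlapped, with control library 3 above all IFN-beta libraries (log2 change 0.06 ± 0.05, adjusted p = 0.398), though quantile normalization gave 0.24 and a call (adjusted p = 0.00069; up to 0.837 over the other alternatives). HSPE1 (HSP10; ENSG00000115541, chromosome 2, 197500140 to 197503449), the lid of the chamber, was at 45.1, 47.3 and 44.0 FPKM with IFN-beta, against 55.9, 54.9 and 55.2 FPKM in controls. All its IFN-beta values lay below the controls (log2 change -0.28 ± 0.04, adjusted p = 0.000663), and every alternative kept the call. The ratio of HSPD1 to HSPE1 in FPKM was 31.1, 29.5 and 32.5 with IFN-beta, against 22.8, 24.6 and 26.2 in controls, without overlap.

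HSPE1 stood far below HSPD1, and the level of each is uncertain. HSPE1 held 727 to 957 reads per library and HSPD1 33220 to 39258, and the lengths behind their FPKM were 579 and 897 bases. The genes lie head to head: 14.2% of the exonic bases of HSPE1 lie in HSPD1 on the opposite strand, and 9.71% in the readthrough gene HSPE1-MOB4, which is listed at 0 in all libraries. Copies of these genes hold reads too. The pseudogene HSPE1P2, which the rule leaves out, averaged 13.4 ± 1.03 FPKM with IFN-beta and 17.0 ± 2.32 FPKM in controls, and HSPD1P1 5.02 ± 0.697 FPKM with IFN-beta and 4.60 ± 0.29 FPKM in controls. How the reads of HSPE1 and HSPD1 were shared with such copies was not tested.

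Of the members HSPA9, DNAJA3, DNAJC19 and DNAJC15, the mitochondrial HSP70 and J-domain genes that work with it or resemble its partners, only DNAJC19 passed, as lower. HSPA9 (mortalin), the mitochondrial HSP70 that pulls proteins through the inner membrane, was at 477, 479 and 484 FPKM with IFN-beta, against 487, 503 and 504 FPKM in controls. The IFN-beta values lay just below the controls (log2 change -0.05 ± 0.03, adjusted p = 0.234). DNAJA3 (TID1), its main J-domain partner in folding, was at 79.3, 79.9 and 81.1 FPKM with IFN-beta, against 77.5, 72.9 and 72.6 FPKM in controls, with no overlap (0.11 ± 0.04, adjusted p = 0.0529). It passed as higher without control library 1 (adjusted p = 0.017), with libraries rescaled to a common sum and under the stricter filter, in a range of 0.0145 to 0.231. DNAJC19, which resembles the J-domain subunit TIM14 of the motor in yeast, was at 45.6, 49.4 and 47.0 FPKM with IFN-beta, against 53.9, 57.2 and 63.1 FPKM in controls. The groups were apart (-0.29 ± 0.06, adjusted p = 0.00468), and every alternative kept the call. Its paralogue DNAJC15 was at 15.7, 15.3 and 15.8 FPKM with IFN-beta, against 16.4, 17.3 and 18.4 FPKM in controls (-0.15 ± 0.06, adjusted p = 0.0584), also without overlap. DNAJC15 passed as lower in 5 alternatives, among them that without control library 1 (adjusted p = 0.0288, in a range of 0.0227 to 0.156).

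DNAJC11 and DNAJC30 serve the inner membrane. DNAJC11, linked to the complex that shapes the cristae, was at 88.9, 88.6 and 86.6 FPKM with IFN-beta, against 81.9, 80.8 and 79.4 FPKM in controls. It was the mitochondrial member called higher (0.12 ± 0.03, adjusted p = 0.0181), but the call was lost in 6 alternatives, among them those without IFN-beta library 1, IFN-beta library 2 or control library 2 (adjusted p up to 0.083), and 27.9% of its exonic bases lie in THAP3 on the opposite strand. DNAJC30, which is tied to the respiratory chain, was at 4.86, 4.65 and 5.44 FPKM with IFN-beta, against 5.93, 5.65 and 5.98 FPKM in controls (-0.22 ± 0.08, adjusted p = 0.0578). Its groups did not overlap, and it passed as lower in 5 alternatives, among them that without IFN-beta library 3 (adjusted p = 0.0367, in a range of 0.0181 to 0.175). Of 14 other tested genes of mitochondrial folding, import and protein quality control, 1 was higher and 3 lower (22.5% and 19.9% of all genes), with a median log2 change of -0.04. The lower ones were the proteases OMA1 (-0.46 ± 0.08, adjusted p = 0.00201) and HTRA2 (-0.42 ± 0.06, adjusted p = 0.000715) and the motor subunit gene TIMM44 (-0.18). GRPEL2 (0.19 ± 0.05, adjusted p = 0.0186), an exchange factor of HSPA9, was higher, a call lost with quantile normalization and without IFN-beta library 2 or 3 or control library 2 (adjusted p up to 0.0655). TRAP1, the mitochondrial HSP90, had a log2 change of -0.04 (adjusted p = 0.41) and the protease YME1L1 of -0.03 (adjusted p = 0.559).

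**Figure D5:**
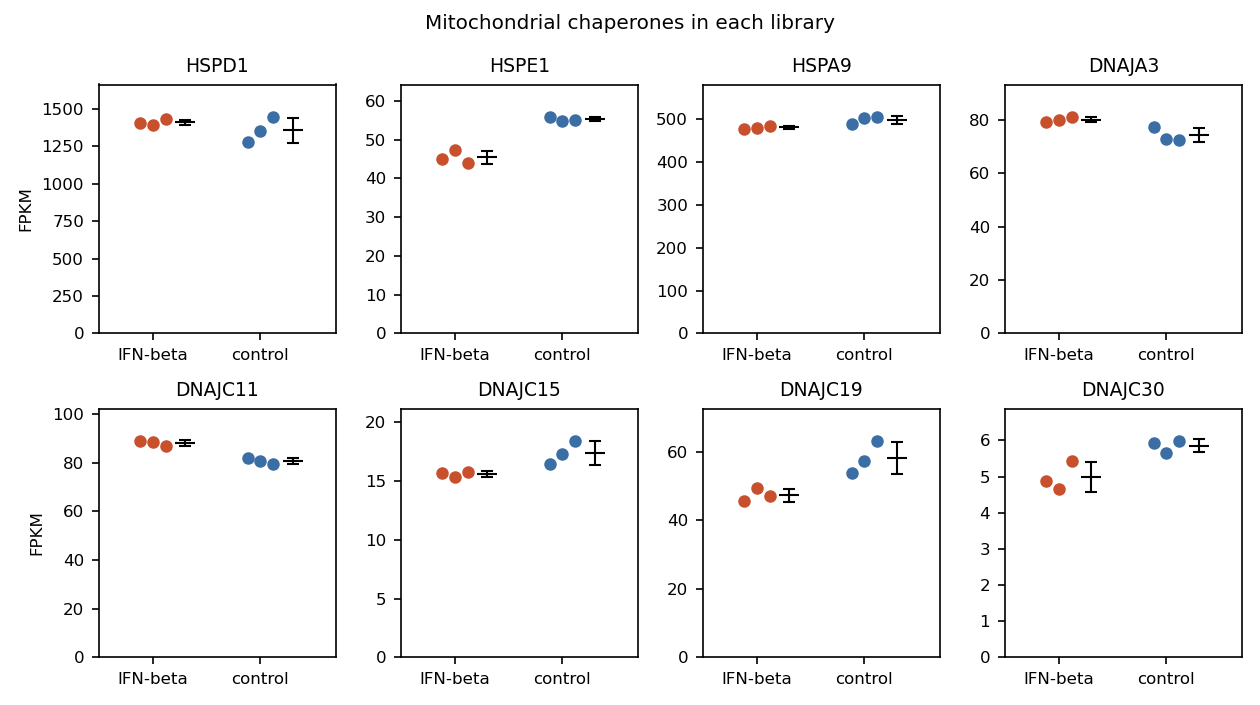
FPKM of the 8 mitochondrial members in each library (points; 3 IFN-beta libraries in red, 3 control libraries in blue), with the mean and SD in black and each axis starting at 0. HSPE1 (44.0 to 47.3 FPKM with IFN-beta, 54.9 to 55.9 FPKM in controls) and DNAJC19 lie lower and DNAJC11 higher in all IFN-beta libraries, while the groups of HSPD1 overlap.

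Of the 6 tested members elsewhere, DNAJC13 (RME-8), which works with HSC70 on endosomes, was at 64.9, 62.8 and 63.7 FPKM with IFN-beta, against 69.5, 75.2 and 77.5 FPKM in controls. The groups were apart (-0.21 ± 0.05, adjusted p = 0.00607), and every alternative kept the call. HSP90AA2P, an HSP90 pseudogene, was at 14.7, 13.3 and 13.9 FPKM with IFN-beta, against 16.0, 15.9 and 16.1 FPKM in controls (-0.19 ± 0.05, adjusted p = 0.0221). As a near copy of HSP90AA1 it may hold reads of that gene, and its call was lost after rescaling to the same sum and without IFN-beta library 2, IFN-beta library 3 or control library 2 (adjusted p up to 0.0865). HSPB11 (IFT25), a subunit of the transport trains of cilia, was at 70.7, 75.8 and 73.6 FPKM with IFN-beta, against 77.0, 77.5 and 83.5 FPKM in controls, without overlap (-0.11 ± 0.05, adjusted p = 0.0764). DNAJC25 was at 7.46, 6.41 and 5.99 FPKM with IFN-beta, against 7.67, 6.61 and 6.60 FPKM in controls, with overlap (-0.07, adjusted p = 0.588), and shares 13.8% of its exonic bases with the readthrough gene DNAJC25-GNG10. DNAJC4 (-0.21, adjusted p = 0.0753) and HSP90AB3P (-0.07, adjusted p = 0.581) did not pass. DNAJC4 passed as lower without control library 3 and in 2 other alternatives (adjusted p 0.0166 to 0.221).

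The 27 members below the filter were at most at a mean of 0.414 FPKM, that of DNAJB5. HSPA6, an HSP70 that in human cells is made almost only under strong heat stress, held 8, 13 and 8 reads with IFN-beta, against 7, 4 and 3 reads in controls. DNAJC12, a partner of the hydroxylases of aromatic amino acids, held 4, 4 and 5 reads with IFN-beta and was listed at 0 in all controls. HSPB9 held 7, 8 and 3 reads with IFN-beta, against 0, 2 and 0 reads in controls, and HSPB3 held 3, 3 and 1 reads with IFN-beta and was listed at 0 in controls. These counts were low, those of DNAJC12 and HSPB3 near the floor of 3 reads per library that a count of 0 allows, and they were not tested. Listed at 0 in every library were DNAJB3, DNAJB8, DNAJC5G, HSPA7, HSPB2, HSPB7, HSP90AB6P and HSP90AB7P. The others below the filter were DNAJB7, DNAJC5B, HSPA12B, HSPB6, DNAJB13, DNAJC22, DNAJC28, HSP90AA4P, HSP90AA5P, HSP90AA6P, HSP90AB2P, HSP90AB4P, HSP90B2P and HSP90B3P.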

How the data were processed

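RNA of 6 HaCaT libraries, 3 per group, was sequenced, and the authors deposited FPKM for 60671 genes. All identifiers of the table are human, while the builds in the submitters' processing notes, GRCm38 and mm10, are mouse builds. Gene coordinates are those of the deposited table, with a human build inferred and not stated. The labels' protocols name CLC Genomics Workbench 11.0.1 for no stated step, and RNeasy and TRIzol for RNA. The aligner, the counting method and the strand setting were not given in the sources used here.

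Each library's reads were recovered from the steps of its FPKM: 100% of the 30507 genes above 0 gave whole reads within 0.01 reads, from totals of 25832158 to 30594527. The floor of 3 reads covers counting error only. The intervals of the log2 changes come from the limma fit and reflect just the variation among these libraries, possibly technical. The recovered gene length was within 10% of the mean length of the gene's GENCODE 29 transcripts in 54 of 59 tested members and of all exonic bases in 8. A gene with many short transcripts is thus divided by a short length (HSPD1 by 897 of 4245 exonic bases), so levels compare between genes only with that limit.

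For the two-sided test of IFN-beta against control, limma 3.58.1 (R 4.3.3; lmFit, then eBayes with the variance trend) was run on log2(FPKM + 0.5) of the 15163 genes averaging at least 0.5 FPKM, with Benjamini-Hochberg adjustment over all of them and a threshold of 0.05. Fold changes on this scale understate those of low genes. Promoter windows are RefSeq's. Python 3.11.15 with pandas 2.3.3, numpy 2.4.6 and matplotlib 3.10.9 made tables and plots.

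The members, the location and pathway lists, the tests and the rule for naming genes were chosen with earlier results of these data known. Full values are given for HSPA5, HSPD1, HSPE1 and DNAJB9, a set of 16 further members, called members with a log2 change of at least 0.5 in size, up to 6 called members per location by size and the 2 highest that did not pass. Per pathway list up to 4 called genes by size and 2 others by level are named; HSPE1P2, HSPD1P1, SEL1L, DERL2 and the members below the filter were picked once their values were known. Tried as alternatives were pseudocounts of 0.1 and 1, no filter, a mean of at least 2 FPKM, libraries rescaled to a common sum, median-of-ratios size factors, quantile normalization, eBayes robust and without its trend, the replicate number as a block, limma voom on the recovered reads, and each of the 6 libraries left out in turn.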

Additional observations from a re-analysis of the deposited data

How the results depend on the processing

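Of the 25 called members, 15 kept call and sign under all 17 alternatives, 10 lost the call under at least 1 and 0 changed sign. Of the 34 not called, 15 passed with their sign kept under at least 1 alternative and 11 changed sign. Among those that changed sign, HSPA8, HSP90AB1 and HSP90AA1 passed as higher with quantile normalization. HSPA8 and HSP90AB1 are not counted in the 15. Members called lower were 9 with the deposited FPKM, 16 with quantile normalization and 14 with median-of-ratios size factors, where the cause was not tested. Leaving out 1 library at a time gave 11 to 17 higher and 6 to 12 lower members and 5166 to 6162 called genes, of 6431 with all libraries. The ratio of the ER sums was 1.17, and 1.21 after rescaling to the same sum. Quantile normalization of the sums, chosen after seeing the data, gave ratios of 1.12 for the cytosol, 1.26 for the ER, 1.10 for mitochondria and 1.12 for all members, against 0.939, 1.17, 1.01 and 0.969 with the deposited FPKM; the cause was not tested. Signs turned after rescaling to the same sum for HSP90AB1 (0.0361), HSPA4 (0.0285), HSPH1 (0.0264), HSPA12A (0.00745), DNAJC9 (0.00994) and DNAJC27 (0.0039), and with quantile normalization for DNAJC24 (-0.0105), DNAJC14 (-0.0196), HSP90AB1 (0.18), HSPA8 (0.26) and HSP90AA1 (0.14); the cause was not tested. With 1 library left out, log2 changes ran from -0.0196 to 0.0715 for DNAJC24, -0.0256 to 0.0123 for HSP90AB1, -0.0688 to 0.00257 for HSPA12A and -0.0974 to 0.00722 for HSPA4L. The median change of all genes was 0.01 with the deposited FPKM, 0.05 after rescaling, -0.05 with quantile normalization and -0.01 with median-of-ratios size factors. Limma voom on the recovered reads called 6874 genes, with 17 members higher and 13 lower, and the filter of 2 FPKM left HSPA1L untested.

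Libraries with the same replicate number did not deviate together (correlations of -0.05, -0.10 and -0.06 for the 3 pairs), so the numbers were not taken as pairs. With the replicate number as a block, 5817 genes were called, with 15 members higher and 8 lower. Depth limits the low members: HSPB8 rested on 30 to 93 reads per library.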
